A study of Mus musculus with 6 samples.

Results

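Nuclear factor kappa B (NF-κB) is a family of dimeric transcription factors, and the 10 genes described here encode its subunits and the proteins that hold it in check. They are a named set among 17469 measured genes, picked with earlier results of these data known, so their counts below are a description of these genes. The 5 subunit genes are Rela, Nfkb1, Nfkb2, Relb and Rel. The 5 genes of inhibitors are Nfkbia, Nfkbie, Nfkbiz, Tnfaip3 and Zc3h12a.

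In resting cells the dimers are kept in the cytoplasm by IκB proteins. Signals from cytokine and Toll-like receptors activate IκB kinase (IKK), IκB is degraded, and the freed dimers enter the nucleus and switch on genes of inflammation. Several of those genes encode inhibitors, so that the response limits itself. In bone, NF-κB is best known as a factor that osteoclasts need to form, and it restrains bone formation by osteoblasts.

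RNA-seq was carried out on bone marrow stromal cells (BMSCs), cells from marrow that adhere to the dish and multiply, of 6-month-old mice. Both genotypes carried Ocn-Cre, in which the osteocalcin promoter drives Cre recombinase, and Ai9, a reporter allele that makes cells tdTomato+ once Cre has acted. The 3 control libraries were Ocn-Cre;Ai9, and the 3 others, TgAPPswe;Ocn-Cre;Ai9 (TgAPPsweOCN below), carried in addition human APP with the Swedish mutation behind a stop cassette that Cre removes. No treatment was given, and the tdTomato+ cells were sorted before RNA was taken. The number of mice behind each library is not given in the sources used here, so the p-values below measure the spread between these libraries, which may be partly technical.

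Estimated counts summed to 19340810 to 19801060 per control library and to 21677461 to 22037840 per TgAPPsweOCN library, and a floor of 3 counts lay at 0.136 to 0.155 CPM (counts scaled to a common library total), which covers counting error only. The mouse gene App, the check of the transgene available here, was at an FPKM (fragments scaled by gene length and by all mapped fragments) of 279 ± 3.5 (mean ± SD, n = 3) in control and 330 ± 4.18 in TgAPPsweOCN. Its log2 fold change in edgeR's quasi-likelihood test was 0.45 (SE 0.0509, adjusted p = 7.87e-05). The SE here and below was derived from the test, as the absolute log2 fold change divided by the square root of the F statistic. Transcripts of the human transgene were not analysed here, and whether their reads were counted as App was not tested. Markers of myeloid cells were far above those of the labelled cell type. The summed FPKM of 15 myeloid markers was 27092 to 29231 in control and 21103 to 24807 in TgAPPsweOCN, and that of 15 stromal and osteoblast markers was 159 to 177 and 129 to 209. Bglap, which encodes osteocalcin itself, and Lepr, Lum and Thy1 had mean FPKM below 1 in both genotypes. In these bulk libraries fewer cells of a type and less RNA per cell cannot be told apart.

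All 10 members passed the filter on low counts. In TgAPPsweOCN, 4 of the 5 inhibitors and 1 of the 5 subunits were up-regulated, and the difference between these groups was not tested. The fifth inhibitor, Nfkbie, had a log2 fold change of -0.55, beside 1.02 in the subunit Nfkb2, 0.71 in Rel and 0.69 in Relb. Up-regulated means that the adjusted p (Benjamini-Hochberg, over all 12701 genes tested) did not exceed 0.05 and that the log2 fold change reached 1. Of all genes tested, 8.9% were up-regulated and 9.2% down-regulated, whereas 5 of the 10 members were up-regulated and 0 down-regulated. Up-regulated genes made up 49.2% of all calls, and 32.8% when libraries were scaled by library size only. By the adjusted p alone, 7 members were higher and 2 lower, beside 32.5% of all genes higher and 31.5% lower. The median log2 fold change was 0.86 over the members, 0.69 over the subunits and 2.28 over the inhibitors, beside -0.02 over all genes tested.

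**Figure D1:**
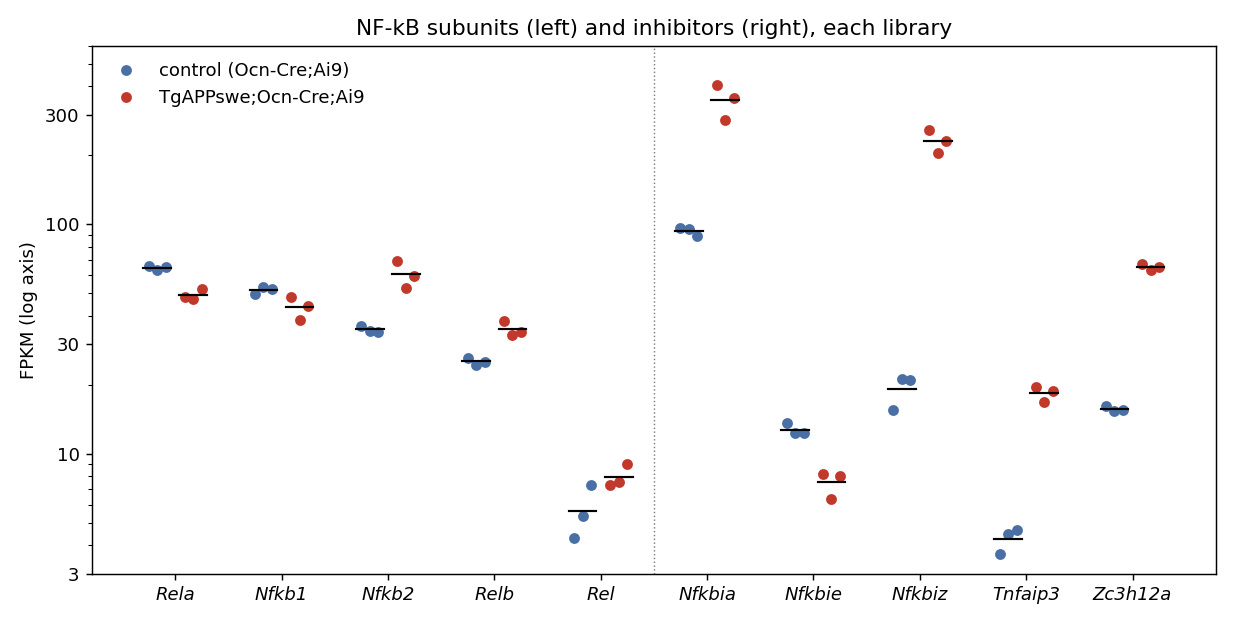
FPKM (log axis) of each member in each library, with control libraries in blue, TgAPPsweOCN libraries in red and the mean of 3 libraries as a black line. Nfkbia, Nfkbiz, Tnfaip3, Zc3h12a, Nfkb2 and Relb lie higher in TgAPPsweOCN without overlap. Nfkbie, Rela and Nfkb1 lie lower without overlap, though the Nfkb1 groups overlap after TMM normalization, and the Rel libraries touch at an FPKM of 7.29.

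NF-κB dimers bind κB sites, and the promoters of the members are shown here because several of these genes are textbook targets of the factor. RefSeq promoter windows (GRCm38.p6, from 250 bases before to 50 bases after a transcript start) were matched for 7 of the 10 members, with 10 windows in all. Nfkb1, Relb and Nfkbiz were not matched. The κB consensus, searched on both strands with overlapping matches counted as 1 site, was found in 7 of the 10 windows and in 5 of the 7 members. It was in 4.51% of all 32851 windows and in 5.25% of those of tested genes. The windows are not separate observations, as 3 of the 7 belong to Nfkb2, and 2 of these 3 overlap and share a site. These windows are set by RefSeq transcript starts, which differ from the gene starts of the GENCODE annotation used for the gene positions below. The GENCODE start lay 417 bases upstream of the RefSeq start in Nfkb2, 247 bases upstream in Tnfaip3 and 58 bases upstream in Rela, so that the 150 bases before the RefSeq start lie inside the GENCODE gene in Nfkb2 and Tnfaip3 and partly inside it in Rela. For 5 members the 150 bases before the RefSeq start follow, 5′ to 3′, from the window of each gene with the most sites, and capitals mark the κB consensus.
Nfkbia, chr12:55492648-55492797, minus strand: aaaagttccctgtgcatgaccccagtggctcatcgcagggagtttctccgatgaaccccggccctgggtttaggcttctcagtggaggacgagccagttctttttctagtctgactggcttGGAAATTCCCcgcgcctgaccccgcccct
Tnfaip3, chr10:19015411-19015560, minus strand: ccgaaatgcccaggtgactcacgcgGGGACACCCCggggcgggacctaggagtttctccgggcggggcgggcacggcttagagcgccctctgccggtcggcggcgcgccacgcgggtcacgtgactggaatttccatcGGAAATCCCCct
Zc3h12a, chr4:125127882-125128031, minus strand: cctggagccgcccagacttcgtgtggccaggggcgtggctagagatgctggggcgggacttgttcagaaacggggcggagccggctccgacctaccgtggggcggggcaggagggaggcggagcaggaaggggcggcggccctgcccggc
Nfkbie, chr17:45555550-45555699, plus strand: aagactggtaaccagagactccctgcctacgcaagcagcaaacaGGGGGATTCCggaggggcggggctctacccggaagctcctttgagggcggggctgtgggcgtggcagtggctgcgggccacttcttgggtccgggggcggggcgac
Rel, chr11:23770970-23771119, minus strand: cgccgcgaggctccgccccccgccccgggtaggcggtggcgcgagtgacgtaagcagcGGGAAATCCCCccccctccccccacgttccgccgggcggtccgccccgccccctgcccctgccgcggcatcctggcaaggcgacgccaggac
The Nfkbia stretch held 1 site, whose first base lay 29 bases before the RefSeq start. The windows of Tnfaip3 and Nfkb2 with the most sites held 2. Their first bases lay 125 and 12 bases before the RefSeq start in Tnfaip3 and 39 and 11 bases before it in Nfkb2, and thus after the GENCODE start in both genes. Rel and Nfkbie held 1 site each, at 92 and 106 bases before the RefSeq start. The windows of Rela and Zc3h12a held no match, which says only that these letters were not in these windows. Zc3h12a, without a match, was up-regulated, and Nfkbie, with a match, was lower in TgAPPsweOCN. Nfkb1, Relb and Nfkbiz had no window, and whether matches and changes go together was not tested.

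The subunits come first. Rela (Entrez identifier 19697, chr19:5637483-5648130 in mm10, plus strand) encodes p65, the activating partner of the canonical dimer. Its FPKM was 65.57, 63.16 and 65.32 in control and 48.09, 47.12 and 52.03 in TgAPPsweOCN. Every TgAPPsweOCN library was lower than every control library. On normalized counts the difference was small, with a log2 fold change of -0.17 (SE 0.0582, adjusted p = 0.03), that is 0.888-fold. The adjusted p reached 0.108 without TgAPPsweOCN replicate 2, and the call was also lost without control replicate 3 and without TgAPPsweOCN replicate 1.

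Nfkb1 (18033, chr3:135584655-135691547, minus strand) encodes the precursor of p50, the usual partner of p65. It had FPKM of 49.79, 53.19 and 52.31 in control and 48.42, 38.15 and 44.01 in TgAPPsweOCN. These levels did not overlap, and TgAPPsweOCN replicate 2 was the lowest. After TMM normalization, which scales libraries by the bulk of their genes, the groups did overlap. The log2 fold change was then close to 0, at 0.997-fold (SE 0.092, adjusted p = 0.972). The TMM factors were 1.07 to 1.08 in control and 0.910 to 0.944 in TgAPPsweOCN, so FPKM differences read lower than those of the test throughout. Scaling by library size only moved the median log2 fold change of all genes to -0.23 and that of Nfkb1 to -0.22, past the adjusted p.

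Nfkb2 (18034, chr19:46304320-46312385, plus strand), the precursor of p52 in the non-canonical pathway, was the up-regulated subunit. Its FPKM rose from 36.03, 34.43 and 34.00 in control to 69.18, 52.79 and 59.84 in TgAPPsweOCN. The groups did not overlap, and the spread was wider in TgAPPsweOCN (60.6 ± 8.22, mean ± SD, n = 3) than in control (34.8 ± 1.07). The log2 fold change of 1.02 (SE 0.103, adjusted p = 4.16e-05) sat just above the fold change threshold, and it was 0.80 when scaled by library size only, 0.99 without control replicate 3 and 0.90 without TgAPPsweOCN replicate 1. Relb (19698, chr7:19606217-19629438, minus strand) encodes the partner of p52. It had FPKM of 26.20, 24.42 and 25.14 in control and 37.96, 32.93 and 34.06 in TgAPPsweOCN. It rose without overlap by a log2 fold change of 0.69 (SE 0.0753, adjusted p = 6.48e-05), under the threshold of 1.

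Rel (19696, chr11:23736847-23770970, minus strand) encodes c-Rel, a subunit best known from lymphoid and myeloid cells. It was the least abundant subunit, with FPKM of 4.31, 5.35 and 7.29 in control and 7.29, 7.55 and 9.02 in TgAPPsweOCN. The highest control library and the lowest TgAPPsweOCN library had the same FPKM, while the normalized counts did not overlap. The log2 fold change was 0.71 (SE 0.174, adjusted p = 0.00676), with the largest standard error of the members. The call was kept in all 14 alternatives, with values from 0.45 to 0.92, the highest without control replicate 3.

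Of the inhibitors, Nfkbia (18035, chr12:55489410-55492647, minus strand) encodes IκBα, which binds canonical dimers and is itself a rapid target of them. It was the most abundant member in both genotypes. Its FPKM was 96.01, 95.24 and 89.33 in control and 404.39, 285.49 and 354.53 in TgAPPsweOCN. The lowest TgAPPsweOCN library was far above the highest control library, though TgAPPsweOCN replicates 1 and 2 themselves lay well apart. This was a rise of 4.33-fold (log2 fold change 2.11, SE 0.129, adjusted p = 2.44e-06).

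Nfkbie (18037, chr17:45555703-45563169, plus strand) encodes IκBε, a second cytoplasmic inhibitor. It went the other way, with FPKM of 13.55, 12.36 and 12.31 in control and 8.16, 6.32 and 8.01 in TgAPPsweOCN. The groups did not overlap. In the test Nfkbie was lower by a log2 fold change of -0.55 (SE 0.111, adjusted p = 0.00247), and it ranged from -0.77 (library size only) to -0.43 (without TgAPPsweOCN replicate 2), past the adjusted p in all 14 alternatives. The FPKM ratio of Nfkbia to Nfkbie was 7.35 ± 0.32 in control and 46.3 ± 2.83 in TgAPPsweOCN (n = 3, exact two-sided permutation p = 0.1, the smallest that 3 against 3 libraries allow).

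Nfkbiz (80859, chr16:55811375-55838899, minus strand) encodes IκBζ, a nuclear IκB that restrains some NF-κB targets and co-activates others such as Il6. It showed the largest change of the members. Its FPKM was 15.51, 21.11 and 21 in control and 257.72, 205.13 and 231.95 in TgAPPsweOCN. The estimated counts behind these levels were 1075, 1487 and 1447 in control and 20099, 15948 and 17809 in TgAPPsweOCN, so counting error is small here. The log2 fold change of 3.81 (SE 0.148, adjusted p = 2.25e-07), or 14-fold, was the 147th highest of the 12701 genes tested. It lay between 3.53 and 3.90 over 14 alternatives.

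Tnfaip3 (21929, chr10:19000910-19015657, minus strand) encodes A20, a ubiquitin-editing enzyme that shuts off signalling upstream of IKK. It was the least abundant member in control, with FPKM of 3.67, 4.46 and 4.64, and stood at 19.45, 16.85 and 18.75 in TgAPPsweOCN. No libraries of the 2 genotypes overlapped. It rose 5.01-fold (log2 fold change 2.32, SE 0.102, adjusted p = 4.08e-07).

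Zc3h12a (230738, chr4:125118423-125127840, minus strand) encodes Regnase-1, an endonuclease that degrades cytokine mRNAs such as that of Il6. Its FPKM was 16.12, 15.43 and 15.49 in control and 67.49, 63.32 and 65.22 in TgAPPsweOCN. The libraries of each genotype lay close together, and its standard error was among the smallest of the members. It rose 4.84-fold (log2 fold change 2.28, SE 0.0617, adjusted p = 4.69e-08).

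**Figure D2:**
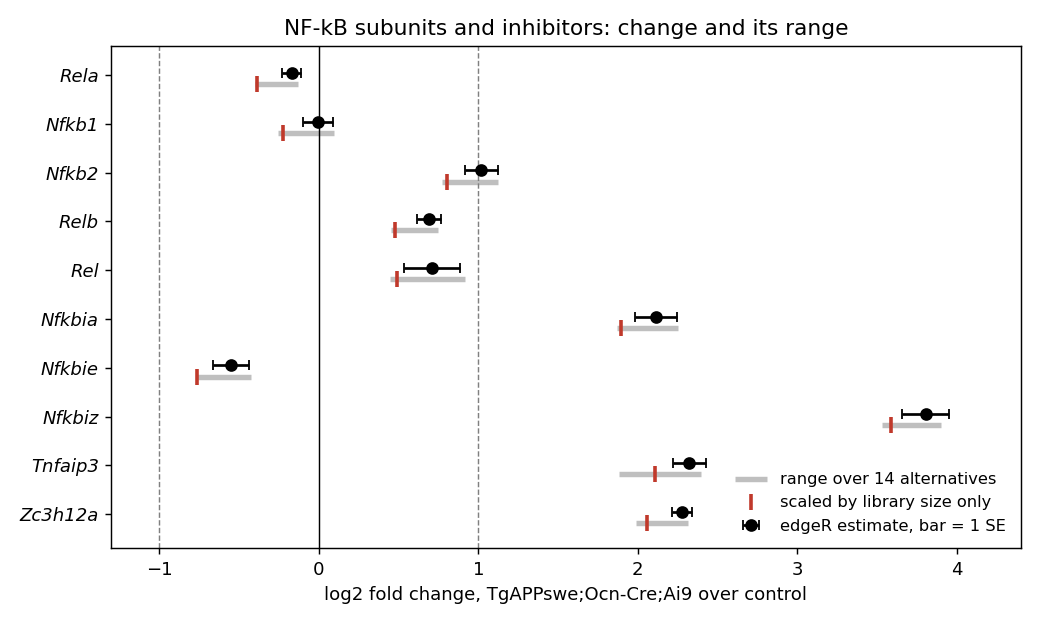
Log2 fold change of each member (TgAPPsweOCN over control) from edgeR as a black point with a bar of 1 SE, above a grey line for its range over 14 alternatives and a red tick for scaling by library size only. The 4 up-regulated inhibitors stay right of the dashed line at 1, Nfkb2 straddles it, and the line of Nfkb1 spans 0.

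By normalized counts, 7 members were higher without overlap and 2 lower without overlap, beside 34.8% and 34.9% of all genes tested. TgAPPsweOCN replicate 2 was the lowest of its genotype for 10 of 10 members, beside 38.0% of all genes tested, and TgAPPsweOCN replicate 1 was the highest for 8 of 10, beside 41.1%. With TgAPPsweOCN replicate 1 left out, 4 members were up-regulated, as Nfkb2 was then at a log2 fold change of 0.90. The myeloid markers moved in both directions between genotypes, with a median log2 fold change of -0.16. Of the 15, 4 were up-regulated, 3 down-regulated, 2 higher and 4 lower by the adjusted p alone. Their part in the changes of the members was not tested. Summed lymphocyte markers were 1.02 to 1.53 in control and 3.37 to 3.88 in TgAPPsweOCN, with 8 of the 9 measured markers below a mean FPKM of 1, and summed neutrophil markers overlapped at 56.7 to 102 and 72.8 to 89.7.

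The order of the levels changed between genotypes. In control it ran from Nfkbia (FPKM 93.5 ± 3.65, mean ± SD, n = 3) through Rela (64.7 ± 1.33), Nfkb1 (51.8 ± 1.76), Nfkb2 (34.8 ± 1.07) and Relb (25.3 ± 0.895). Nfkbiz (19.2 ± 3.2) and Zc3h12a (15.7 ± 0.382) followed with overlapping libraries, then Nfkbie (12.7 ± 0.702), and Rel (5.65 ± 1.51) and Tnfaip3 (4.26 ± 0.516) overlapped at the low end. In TgAPPsweOCN, Nfkbia (348 ± 59.7) was followed by Nfkbiz (232 ± 26.3). Zc3h12a (65.3 ± 2.09) overlapped with Nfkb2 (60.6 ± 8.22), and Rela (49.1 ± 2.6) with Nfkb1 (43.5 ± 5.15). Relb (35 ± 2.64) and Tnfaip3 (18.4 ± 1.35) stood alone, and Rel (7.95 ± 0.933) overlapped with Nfkbie (7.5 ± 1.02). Thus the subunits Rela, Nfkb1, Nfkb2 and Relb ranked directly below Nfkbia in control, and inhibitors held the first 3 places in TgAPPsweOCN, the third without separation from Nfkb2.

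The make-up of the subunit pool was compared as shares of the summed FPKM of the 5 subunits. That sum was 182 ± 1.77 in control and 196 ± 16.4 in TgAPPsweOCN and overlapped between the genotypes (exact two-sided permutation p = 0.4). Unlike the shares, the sum depends on the scaling between libraries. The TMM factors, 1.07 to 1.08 in control and 0.910 to 0.944 in TgAPPsweOCN, were not applied to it, so its difference reads lower than after TMM. Rela made up 36.0%, 35.0% and 35.5% of the sum in control and 22.8%, 26.4% and 26.2% in TgAPPsweOCN. Nfkb1 made up 28.4% ± 1.04 (SD, n = 3) and 22.1% ± 0.794. Nfkb2 took 19.8%, 19.1% and 18.5% in control and 32.8%, 29.6% and 30.1% in TgAPPsweOCN, and Relb 13.9% ± 0.473 and 17.9% ± 0.674. Each of these 4 shares separated the genotypes without overlap (exact two-sided permutation p = 0.1, the smallest possible). The share of Rel, 3.10% ± 0.804 and 4.07% ± 0.555, overlapped (exact permutation p = 0.2). The genes of the canonical pair therefore had smaller shares, and those of the non-canonical pair larger shares, in TgAPPsweOCN. Shares of a library add up to the whole, so a larger share of some subunits lowers those of others. In edgeR's test Nfkb1 was at 0.997-fold (adjusted p = 0.972) and Rela at 0.888-fold (adjusted p = 0.03). Within libraries the FPKM ratio of Nfkb2 to Nfkb1 was 0.674 ± 0.0433 in control and 1.39 ± 0.0351 in TgAPPsweOCN. The ratio of Relb to Rela was 0.390 ± 0.00803 and 0.714 ± 0.0687. These ratios are within a library and do not depend on the scaling between libraries.

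The summed FPKM of the 5 inhibitors was 145 ± 2.95 in control and 671 ± 90.3 in TgAPPsweOCN. Set against the subunits of the same library, the ratio was 0.796, 0.823 and 0.776 in control and 3.59, 3.23 and 3.41 in TgAPPsweOCN. The genotypes were far apart, with means of 0.798 ± 0.0237 and 3.41 ± 0.179 (n = 3, exact two-sided permutation p = 0.1, the smallest possible). The ratio of Nfkbia to Rela was 1.45 ± 0.0718 and 7.09 ± 1.2. That of Nfkbiz to Nfkbia was 0.206 ± 0.0392 and 0.670 ± 0.0428, so that Nfkbiz was higher also relative to Nfkbia.

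**Figure D3:**
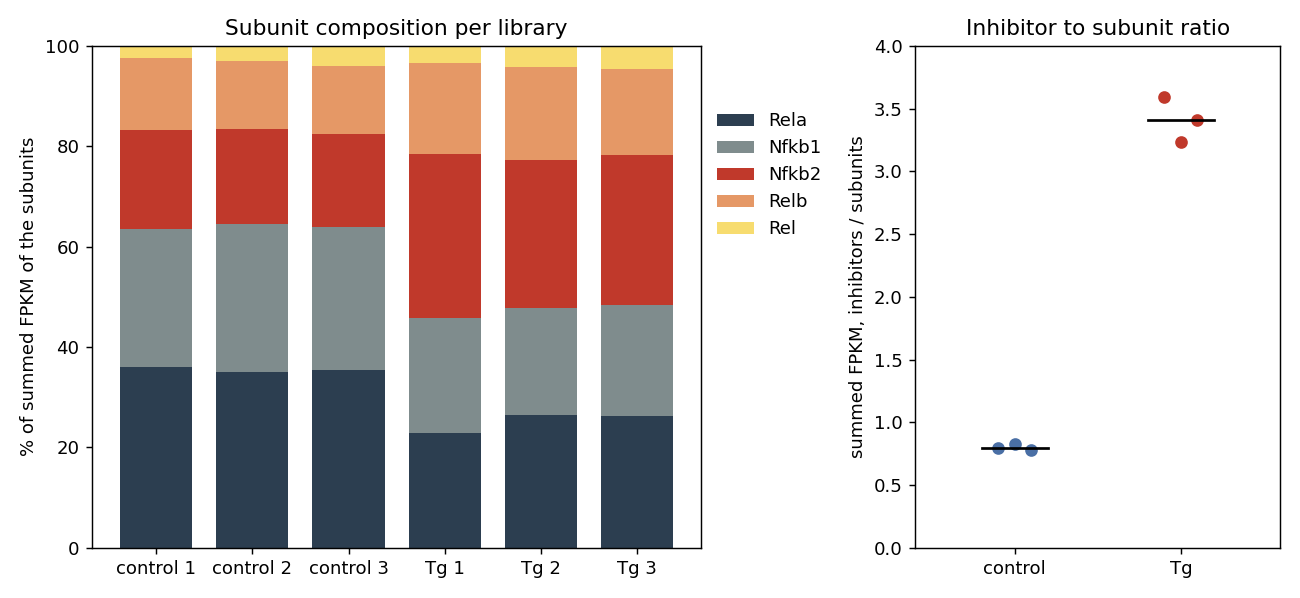
Left, stacked bars of the share (%) of each subunit in the summed FPKM of the 5 subunits, per library (Tg, TgAPPsweOCN). Right, the ratio of the summed FPKM of inhibitors to subunits, with points for libraries and lines for means. Nfkb2 takes 29.6% to 32.8% in TgAPPsweOCN against 18.5% to 19.8% in control, and the ratio is 3.23 to 3.59 against 0.776 to 0.823.

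The other genes of the pathway were counted in lists written by role, to be read beside the 8.9% of all genes tested that were up-regulated, the 9.2% down-regulated, and the 32.5% higher and 31.5% lower by the adjusted p alone. Among 5 other genes of the IκB family and its regulators, 1 was up-regulated, 2 were higher and 1 lower by the adjusted p alone, and 1 did not pass (median log2 fold change 0.42). Bcl3, a nuclear IκB that partners p50 and p52, was up-regulated from an FPKM of 30.7 ± 1.56 to 76.3 ± 1.32 (log2 fold change 1.53, SE 0.0585, adjusted p = 2.15e-07). Nfkbid, another nuclear IκB, was lower, at 25.2 ± 2.94 and 11.4 ± 2.33 (log2 fold change -0.94, adjusted p = 0.000525). Nfkbib, the gene of IκBβ, was higher, at 31.4 ± 2.23 and 43.2 ± 5.07 (log2 fold change 0.67, adjusted p = 0.000462). Nkiras1, whose product slows the degradation of IκBβ, had a log2 fold change of 0.42 (adjusted p = 0.0264), past the adjusted p in 9 of 14 alternatives.

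Of 24 IKK kinases and adaptors, 3 were up-regulated, 8 higher, 7 lower and 6 did not pass (median 0.17). In shares, 12.5% were up-regulated, and by the adjusted p 45.8% were higher and 29.2% lower. The sign of 2 of those past the adjusted p, Chuk and Ripk1, turned when scaled by library size only. The up-regulated genes were Traf1, Ikbke and Irak2. The 7 lower genes included Tab1 (log2 fold change -0.89, adjusted p = 6.5e-05), Map3k14 (-0.37, adjusted p = 0.00178) and Ikbkb (-0.34, adjusted p = 0.000627), named after their values were seen. Ikbke, the gene of the IKK-related kinase IKKε, had an FPKM of 64.7 ± 7.28 in control and 211 ± 14.7 in TgAPPsweOCN (log2 fold change 1.96, SE 0.102, adjusted p = 1.01e-06). Traf1, an adaptor of tumour necrosis factor (TNF) receptors, was at 4.05 ± 0.721 and 18.95 ± 7.15 (log2 fold change 2.27, SE 0.277, adjusted p = 0.000131). Irak2, a kinase downstream of Toll-like and interleukin-1 receptors, was at 22.6 ± 1.3 and 58.4 ± 4.15 (log2 fold change 1.59, adjusted p = 8.46e-07), and their shared adaptor Myd88 was at 51.1 ± 1.72 and 84.9 ± 2.94 (log2 fold change 0.95, adjusted p = 2.14e-06).

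Of 23 ubiquitin ligases and other brakes on the pathway, 5 were up-regulated, 11 higher, 3 lower and 4 did not pass (median 0.44), and the sign of 1 of the higher genes, Cyld, turned when scaled by library size only. Irak3, a kinase-dead member of the IRAK family that dampens Toll-like receptor signalling, had the largest rise, from an FPKM of 15.2 ± 1.29 to 96.5 ± 4.2 (log2 fold change 2.94, SE 0.0802, adjusted p = 4.77e-08). Tnip1, a partner of A20, rose from 28.7 ± 1.32 to 111 ± 0.719 (log2 fold change 2.19) and its relative Tnip3 from 14.3 ± 0.95 to 46.1 ± 3.09 (1.91). Birc3, the gene of the ubiquitin ligase cIAP2, rose from 22.9 ± 0.935 to 74.1 ± 5.86 (log2 fold change 1.89). The adjusted p of these 3 was at most 3.5e-07.

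Of 12 other mRNA decay factors, the group to which Zc3h12a also belongs, 1 was up-regulated, 2 were down-regulated, 2 lower and 7 did not pass (median -0.04). In shares, 8.33% were up-regulated and 16.7% down-regulated, and by the adjusted p 8.33% were higher and 33.3% lower. Zc3h12c, a relative of Zc3h12a, rose from an FPKM of 3.75 ± 0.492 to 10.2 ± 0.631 (log2 fold change 1.63, adjusted p = 1.49e-06). The genes of the tristetraprolin family, whose proteins bind AU-rich elements and speed mRNA decay, were lower. Zfp36l1 fell from 159 ± 4.68 to 27.9 ± 1.73 (log2 fold change -2.30, SE 0.0599, adjusted p = 3.85e-08) and Zfp36l2 from 189 ± 7.45 to 46.2 ± 4.23 (log2 fold change -1.82, adjusted p = 2.15e-07). Zfp36, which encodes tristetraprolin, was at 516 ± 81.3 and 255 ± 16.3 (log2 fold change -0.80, adjusted p = 0.00033).

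Of 30 textbook targets of NF-κB, 29 were tested, but Il12b, Il6, Il1a, Nos2 and Cxcl3 passed the filter on low counts only through TgAPPsweOCN. With 10 counts asked of each library these 5 dropped out, and 15 of the other 24 were up-regulated and 2 down-regulated, with a median log2 fold change of 2.51. With the 5 included, 20 were called up-regulated and the median was 2.64, which is a description of the genes that passed. Il12b, Il6, Il1a and Nos2 had the largest fitted values, all against control levels near 0. Il12b, a subunit of interleukin-12, had FPKM of 0 to 0.02 in control and 2.08 to 15.0 in TgAPPsweOCN. Il6 had 0.05 to 0.24 and 7.51 to 20.7, Il1a 0.11 to 0.24 and 1.96 to 18.4, and Nos2 0.03 to 0.12 and 1.69 to 2.12. Their fold changes depend on the prior count and, like their p-values, are not given. The down-regulated targets, named after their values were seen, were Plau, which encodes urokinase, at 25.0 ± 2.55 and 6.27 ± 0.842 (log2 fold change -1.78, adjusted p = 2.4e-06), and Cd83, at 23.3 ± 3.29 and 7.73 ± 0.77 (log2 fold change -1.38, adjusted p = 1.21e-05).

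**Figure D4:**
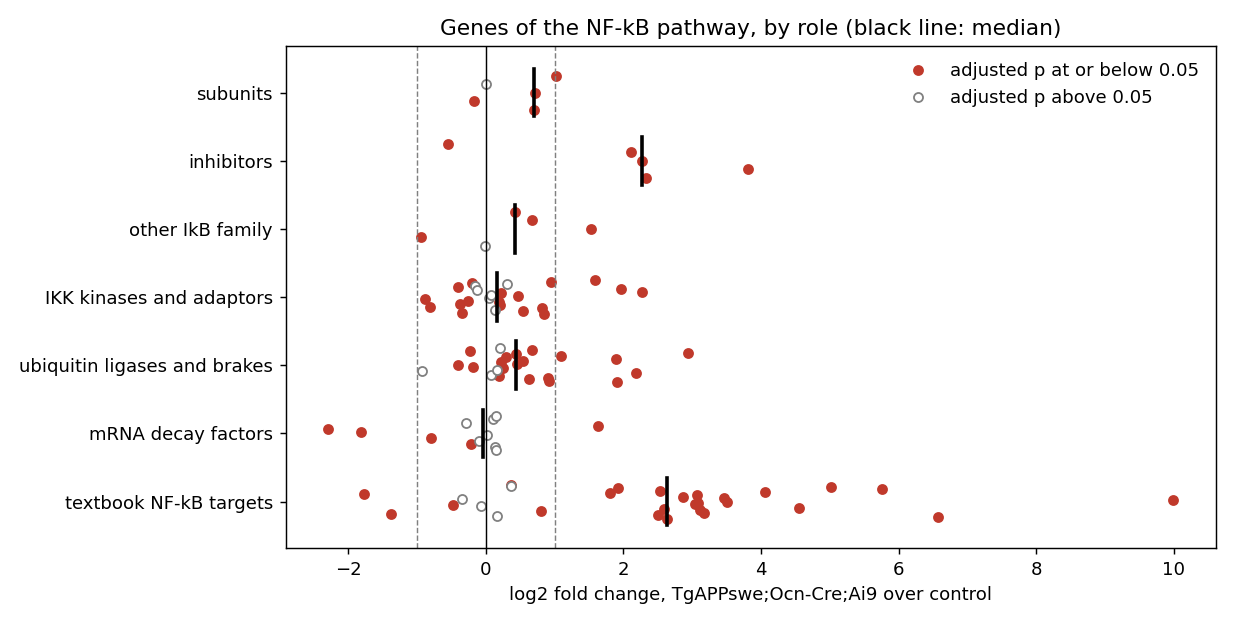
Log2 fold change (TgAPPsweOCN over control) of each tested gene by role, filled red where the adjusted p was at or below 0.05 and open otherwise, with black lines for medians and dashed lines at -1 and 1. The medians are 0.69 for subunits, 2.28 for inhibitors and 2.64 for targets (2.51 without the 5 that passed the filter only through TgAPPsweOCN, with 10 counts asked of each library), and the point farthest right is Il12b, with FPKM of 0 to 0.02 in control.

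The members were also compared by their 3′ untranslated regions (GENCODE annotation of mm10, the transcript with the longest region of each gene), since AU-rich elements there are what tristetraprolin binds. ATTTA was counted on the transcribed strand, overlapping matches included. The 4 up-regulated inhibitors held 3.91 (Nfkbia), 3.50 (Zc3h12a), 2.95 (Nfkbiz) and 2.75 (Tnfaip3) ATTTA per kilobase, and Nfkbie held 0. Among the subunits Nfkb1 held 6.66, Rel 2.21 and Nfkb2 1.58, and Rela and Relb held 0. The median of the 12056 tested genes with a region of at least 100 bases was 1.37. Nfkb1 held the most ATTTA per kilobase of the members and did not pass the adjusted p. Whether density and change go together was not tested.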

How the data were processed

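RNA-seq of 6 libraries was analysed, 3 per genotype as given by the sample labels. The authors sorted tdTomato+ BMSCs, sequenced RNA on a DNBSEQ platform, removed rRNA and low-quality reads and mapped with HISAT2. The submitters' processing notes name mm10, HISAT2 2.0.4, Bowtie2 2.2.5, RSEM 1.2.12 and DESeq2 1.4.5. The authors deposited estimated counts, fractional for 13.3% to 14.4% of the genes per library, and FPKM rounded to 2 decimals. Deposited columns of genotype means, log2 ratios and p-values were not used, and a second table that repeats the FPKM was not used.

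These estimates, rounded to integers since the test was planned on counts, compared with edgeR 4.0.16 in R 4.3.3 (filterByExpr, TMM, quasi-likelihood test, no replicate block), with Benjamini-Hochberg adjustment over 12701 genes and the thresholds of the study's methods. The biological coefficient of variation was 9.85%. Shares and ratios of FPKM were compared by exact permutation tests. Alternatives were DESeq2 1.42.0, RLE size factors, library size only, no filter beyond 1 count, at least 10 counts in every library, a replicate block, limma 3.58.1 on log2(FPKM + 1) or log2(FPKM + 0.1), and leaving out each library. For shares and ratios, counts took the place of FPKM. The procedure was tested on simulated data. Python 3.11.15, numpy 2.4.6, pandas 2.3.3, scipy 1.17.1 and matplotlib 3.10.9 were used.

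The 10 members and all lists were chosen with earlier results of these data known. All members were named with their values, and up to 4 genes per other list with the largest absolute change past the adjusted p. Plau, Cd83, Cxcl3, Chuk, Ripk1, Cyld, Tab1, Map3k14 and Ikbkb lie outside this rule, their values being known when they were named. Markers were summarised by list. Gene positions and untranslated regions came from GENCODE and promoter windows from RefSeq.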

Additional observations from a re-analysis of the deposited data

How the results depend on the processing

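The 4 up-regulated inhibitors kept their call under all 14 alternatives, and the direction of every member except Nfkb1 held. The number of up-regulated members was 4 with library size only and with limma, 4 to 5 when 1 library was left out, and 7 with no fold change threshold, an alternative chosen after seeing the data, under which 2 members counted as down-regulated. Leaving out 1 library gave 1 to 2 lower members, since Rela was lost. The log2 fold change of Nfkb1 was 0.0055 with DESeq2 and with RLE size factors and ran from -0.10 to 0.094 when 1 library was left out. Down-regulated genes, 0 in the report for these lists, numbered 1 in the other IκB family with library size only and with limma at either pseudocount (0 to 1 when 1 library was left out). They numbered 2 with library size only and 1 with limma on log2(FPKM + 0.1) among IKK kinases and adaptors, and 1 with library size only among ubiquitin ligases and brakes (0 to 1 when 1 library was left out). With counts in place of FPKM the inhibitor to subunit ratio differed by 2.24 between genotypes, beside 2.61.

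Over all genes, 49.2% of calls were up-regulated, beside 32.8% with library size only (846 up, 1732 down) and 34.9% with limma on log2(FPKM + 0.1) (811 up). With limma on log2(FPKM + 1), 593 genes were up-regulated, beside 1130. Same-numbered libraries did not deviate together (correlations 0.0127, 0.00668 and 0.14), and 2 of the 6 libraries correlated best with their own number, so the labels' numbers are not taken to pair them. With a replicate block 5 members were up-regulated, and 1115 and 1147 of all genes were up- and down-regulated. The smallest estimated count of a member in any library was 213.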
